A study of Mus musculus with 4 samples.

Results

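Narrow H3K36me3 peaks that were listed in B6 but not in KI, and that nevertheless lay on broad H3K36me3 enrichment of KI, numbered 21143 of the 54236 narrow (refined) peaks of B6 on the 19 autosomes (39.0%, Wilson 95% interval 38.6% to 39.4%). They were selected on the measured overlaps themselves: a B6 refined peak was a member if it shared at least 1 bp with a broad (unrefined) region of KI and 0 bp with a KI refined peak. The count is therefore a description and was not tested. The remaining B6 peaks were 9593 that shared bases with a KI refined peak and 23500 that lay on no interval of either KI list. Over all chromosomes and both strains the lists held 58502 B6 and 72692 KI refined peaks.

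The study immunoprecipitated H3K36me3 from MNase-digested chromatin of spermatocytes at 14 dpp and sequenced it beside input DNA, which is labelled 15 dpp. B6 was C57BL/6J, and KI was B6.Cg-Prdm9<tm1.1Kpgn>/Kpgn, in which the last exon of Prdm9, with the zinc fingers, was replaced by that of CAST/EiJ, so both groups share the B6 background. For each strain 2 biological replicates were merged by the authors before ZINBA called broad regions and, inside them, refined peaks against the input of the same strain. The lists give positions on mm9 without heights, scores or reads. The depth behind each peak is thus unknown, the intervals below cover the number of peaks only, and no p-value was computed between strains.

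PRDM9 is a meiotic histone methyltransferase whose zinc fingers bind DNA and which trimethylates H3K4 and H3K36 on nucleosomes around its binding site, where recombination hotspots form. SETD2 places H3K36me3 along the bodies of transcribed genes while RNA polymerase II elongates. In spermatocytes a narrow peak can thus lie on a broad domain that is present whichever Prdm9 allele is carried. For the members the broad domain was called in both strains and the narrow peak in B6 alone. Whether a given member depends on the B6 allele of Prdm9 was not tested.

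The spermatocyte label was checked against genes that mark cell types of the testis. All 7 germ cell markers (among them Ddx4, Dazl and Sycp3) were covered by broad regions over at least 50% of the gene in both strains. Of 6 Sertoli cell markers, 2 reached this in B6 and 0 in KI, with median coverage of 43.6% and 0.167%. For Sox9, which directs Sertoli cell fate, coverage was 45.2% in B6 and 0% in KI. Of 5 Leydig cell markers, Star was covered completely in both strains and the others to at most 1.51%, and of 2 peritubular markers 0 reached 50%. The part of this difference between strains in the member counts was not tested, and more cells with the mark and more mark per cell cannot be told apart in such lists.

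Short sequences that mark B6 peaks were listed from peaks that are not members. B6-only peaks with no KI region were set against KI-only peaks with no B6 region, in windows of 400 bp at the middle of each peak. The B6 list holds the 20 10-mers that ranked highest by the lower limit of their log odds ratio, and the reverse comparison gave the KI list. The B6 list opens with AGAAGCTACT, CAGTAGCTTC, GATGTTACTA and GGTAGTAGCA, several of which overlap one another on either strand, and the KI list opens with GAATGTGACC. AGAAGCTACT was the 10-mer of the B6 list found in the most members, 48 of 21143, against 38 of the 36680 KI-only peaks on B6 broad regions, which are the counterpart of the members in the other strain. Of 14 members up to 300 bp wide that held it outside UTRs and simple repeats, 4 are shown, starting with the one farthest from a KI refined peak, because they show where the sequence sits in the peak. Capitals mark AGAAGCTACT or its reverse complement AGTAGCTTCT.
Nsf member: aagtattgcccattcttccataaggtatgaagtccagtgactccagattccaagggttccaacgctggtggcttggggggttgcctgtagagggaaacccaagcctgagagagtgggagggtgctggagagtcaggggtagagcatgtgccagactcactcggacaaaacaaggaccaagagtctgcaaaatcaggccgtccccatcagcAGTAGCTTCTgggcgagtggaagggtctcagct
Tax1bp1 member: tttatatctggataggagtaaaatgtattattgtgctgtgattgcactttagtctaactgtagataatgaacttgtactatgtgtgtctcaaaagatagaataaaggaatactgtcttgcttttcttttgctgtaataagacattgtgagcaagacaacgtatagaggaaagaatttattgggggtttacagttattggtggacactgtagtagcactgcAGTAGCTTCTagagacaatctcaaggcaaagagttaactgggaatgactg
Smyd3 member: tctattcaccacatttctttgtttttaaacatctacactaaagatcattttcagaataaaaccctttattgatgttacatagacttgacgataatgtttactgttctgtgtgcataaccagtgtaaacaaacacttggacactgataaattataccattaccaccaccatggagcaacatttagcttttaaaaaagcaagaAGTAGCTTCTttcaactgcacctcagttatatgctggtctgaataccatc
Nrbf2 member: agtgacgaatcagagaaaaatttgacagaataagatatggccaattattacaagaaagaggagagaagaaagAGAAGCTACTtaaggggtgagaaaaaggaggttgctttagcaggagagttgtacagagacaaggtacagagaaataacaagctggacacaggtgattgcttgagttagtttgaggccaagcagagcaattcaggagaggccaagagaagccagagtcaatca

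The Nsf member, at chr11:103719156-103719398 on mm9, lay in an intron of Nsf, which encodes an ATPase of vesicle fusion, and held the 10-mer 93 bp from its middle. The Tax1bp1 member, at chr6:52677881-52678150, lay in an intron of this autophagy adaptor gene and held it 90 bp from the middle. The member in an intron of Smyd3 (chr1:181169075-181169325), a SET domain methyltransferase gene, held it 80 bp from the middle. In the member in an intron of Nrbf2 (chr10:66736425-66736658) the distance was 40 bp. In 3 of these 4 members the 10-mer thus lay nearer to an edge of the peak than to its middle. The 4 do not stand for all: a further member that fits the rule, not shown, held it 3 bp from the middle.

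The Nsf member shows the arrangement at a scale far above that of most members. It was the sole B6 refined peak in a KI broad region of 102.5 kb, and the sole KI refined peak of that region lay 34137 bp away. Over all members the median distance to a KI refined peak was 875 bp. The KI region beneath had a median width of 6 kb.

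**Figure D1:**
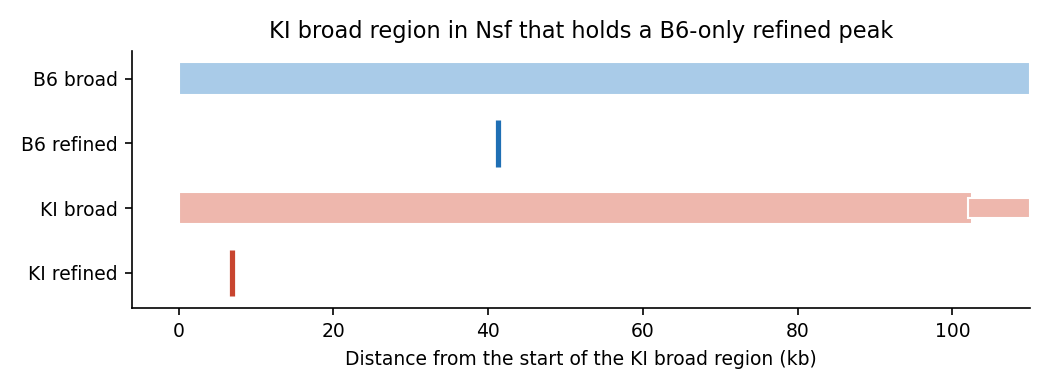
Broad regions (bars) and refined peaks (vertical lines, drawn wider than to scale) of B6 and KI over a KI broad region of 102.5 kb in Nsf, by distance from the start of that region in kb. The only B6 refined peak starts at 41.2 kb and the only KI refined peak at 6.84 kb. A second KI region that overlaps the end of the first is drawn thinner.

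Members were narrow, with a median width of 306 bp (interquartile range 251 to 444 bp). B6 peaks that overlapped a KI refined peak had a median of 364 bp (267 to 561 bp) and those with no KI region 304 bp (253 to 465 bp). KI broad regions contained 19238 members whole (91.0%, 90.6% to 91.4%), while 1905 crossed the edge of a region. At the limit of the rule, 61 members had 1 to 10 bp on a KI broad region, and 61 B6-only peaks lay 0 to 10 bp outside one. At the other limit, 209 members lay 0 to 10 bp from a KI refined peak, and 222 peaks counted as overlapping did so by 1 to 10 bp. The 5 widest members spanned 3179 to 3852 bp. They lay in Fam134a (3852 bp, 701 bp from the nearest KI refined peak), in Gtf2f2, which encodes a subunit of the transcription factor TFIIF (3557 bp, 2130 bp away), across Swi5 and Golga2 (3428 bp, 4436 bp away), at 1200011M11Rik (3187 bp, 1271 bp away) and in the non-coding gene Malat1 (3179 bp, 100 bp away).

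The nearest KI refined peak was a median of 875 bp from a member (interquartile range 337 to 2363.5 bp). It lay within 150 bp, about the length of DNA on a nucleosome, for 2501 members (11.8%) and over 150 to 500 bp away for 4720 (22.3%). It was more than 1000 bp away for 9680 members (45.8%, 45.1% to 46.5%) and over 10000 bp away for 1184 (5.60%). The largest distance was 80850 bp.

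Most broad regions of either strain held a single refined peak. Every broad region held at least 1 refined peak, and 93.1% of the 50542 autosomal broad regions of B6 and 91.6% of the 62557 of KI held exactly 1. This share hardly varied with width: regions of 2 kb held a single refined peak in 94.4% of cases in B6 and 93.7% in KI, and regions over 50 kb in 92.9% and 89.5%. Of the members, 17604 (83.3%, 82.8% to 83.8%) were the single refined peak of their B6 region. For 16063 members (76.0%, 75.4% to 76.5%) the KI region beneath held a single KI refined peak as well. The call of a member thus most often set the 1 listed position of a B6 domain against the 1 listed position of a KI domain. Whether the refinement lists only the highest point of most regions could not be checked from positions alone, so the absence of a KI refined peak at a member does not show that KI had no narrow enrichment there.

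In these 16063 cases the distance from the member to the nearest KI refined peak rose with the width of the KI region and stayed near the same share of that width. The nearest KI peak need not be the one of the region beneath. In regions of 2 kb the median distance was 347 bp (interquartile range 151 to 617 bp, 1741 members), and the median share of the width was 17.3%. In regions over 5 to 10 kb it was 1183 bp (512 to 2138.5 bp, 3204 members), with a median of 16.8%. In regions over 50 kb it was 12043 bp (5249 to 22629 bp, 721 members), with a median of 17.4%. Across 7 width classes this median share ranged from 16.1% to 17.4%.

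**Figure D2:**
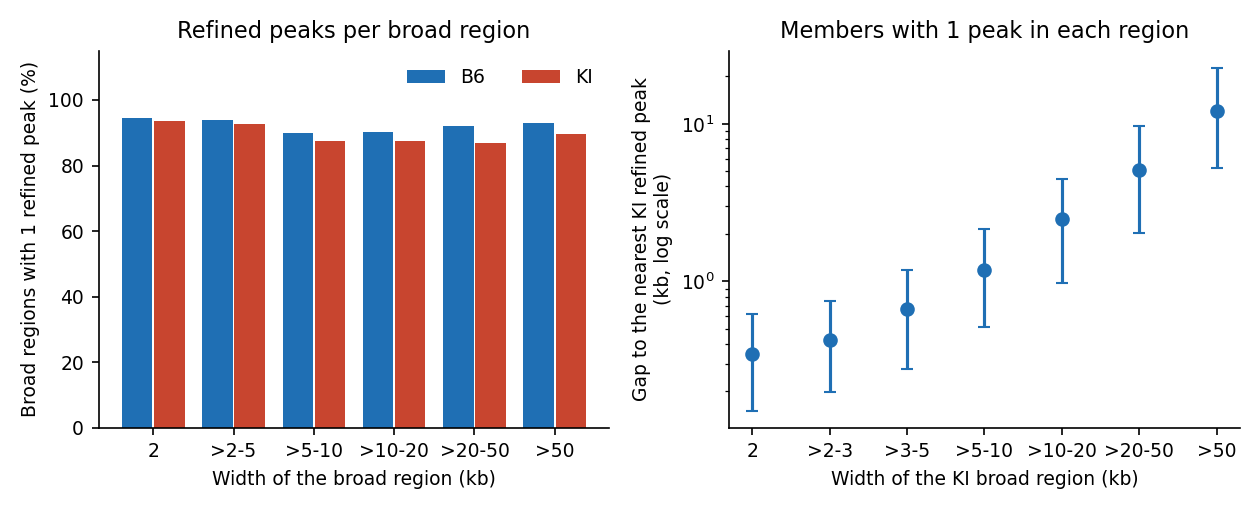
Left, share of broad regions with exactly 1 refined peak (bars, in %) by width of the region in kb, for B6 and KI, which lies between 87.0% and 94.4% in every class. Right, distance in kb (log scale) from a member to the nearest KI refined peak by width of the KI region, for members whose regions hold 1 refined peak in each strain, with points for medians and bars for the interquartile range, rising from 347 to 12043 bp.

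The share of B6 refined peaks that were members rose with the width of their own broad region. It was 19.0% (18.4% to 19.7%) of 12422 peaks in regions of 2 kb, 57.8% (56.7% to 59.0%) of 6906 in regions over 5 to 10 kb and 87.8% (86.1% to 89.4%) of 1572 in regions over 50 kb. Peaks that overlapped a KI refined peak numbered 1244 in regions of 2 kb, and made up 17.3% of the peaks in regions over 2 to 5 kb, 28.8% over 5 to 10 kb and 11.5% over 50 kb. The B6 regions of members had a median width of 6.5 kb (interquartile range 3 to 17.5 kb), against 4.5 kb for B6 peaks that overlapped a KI refined peak and 2.5 kb for those with no KI region. KI broad regions covered a median of 95.4% of the B6 region of a member (interquartile range 79.2% to 100%).

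**Figure D3:**
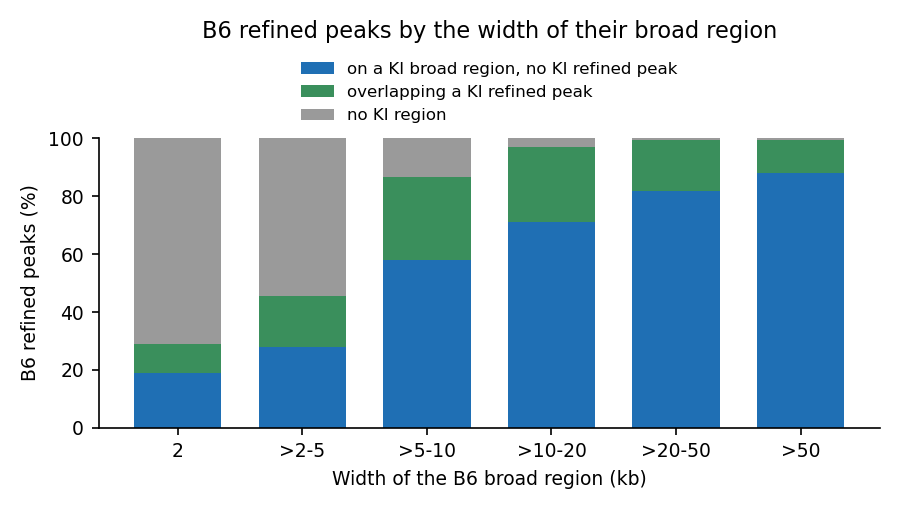
B6 refined peaks (in %) by the width of their B6 broad region in kb, split into members (blue), peaks overlapping a KI refined peak (green) and peaks with no KI region (grey). The blue share rises from 19.0% at 2 kb to 87.8% over 50 kb, where the grey share is 0.636%.

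Seen from KI, 19130 of 62557 broad regions (30.6%) carried a member. Of these, 16858 carried 1 and 2272 carried 2 or more. The most was 6, in a region of 17.5 kb at chr2:35908001-35925500. KI regions with a member had a median width of 5 kb (interquartile range 3 to 13.5 kb), and those without one 2.5 kb (2 to 4 kb). By chromosome, members made up between 35.7% of the B6 refined peaks (chromosome 3) and 45.5% (chromosome 7). Chromosomes 7, 19, 11 and 17 had the highest shares, and their intervals did not overlap that of chromosome 3 (33.9% to 37.5%).

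Most members lay in genes. Of the 21143, 18263 overlapped a protein-coding gene of the GENCODE annotation of mm9 (86.4%, 85.9% to 86.8%), against 76.9% of all autosomal B6 refined peaks. The share exceeded that of B6 peaks that overlapped a KI refined peak by 3.48 percentage points (Newcombe 95% interval 2.61 to 4.38) and that of B6 peaks with no KI region by 20.5 points (19.8 to 21.3). Against KI-only peaks on B6 broad regions (89.0%) the difference was -2.65 points (-3.21 to -2.09). The KI broad regions, on which members lie by the rule, had 83.3% of their bases in such genes. By midpoints, the measure nearer to a share of bases, 85.7% of members lay in such genes. With genes of any type the share of members was 88.2%, against 78.9% of all autosomal B6 refined peaks.

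The middle of a member fell in an intron in 15441 cases (73.0%, 72.4% to 73.6%), and introns made up 73.8% of the bases of KI broad regions. Coding exons took 1094 members (5.17%, 4.88% to 5.48%), against 3.44% of all autosomal B6 refined peaks and 4.22% of the bases of KI broad regions. The 3′ UTRs took 1136 members (5.37%, 5.08% to 5.69%), against 3.55% of those bases, and 5′ UTRs took 28 (0.132%), against 0.202% of the bases. Members were more frequent than KI-only peaks on B6 broad regions in coding exons, by 0.695 points (0.333 to 1.07), and in 3′ UTRs, by 1.49 points (1.13 to 1.86). In introns the difference was -5.62 points (-6.36 to -4.90).

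Few members lay at gene starts, and more lay at gene ends. Within 1 kb of the start of a protein-coding gene lay 145 members (0.686%, 0.583% to 0.806%), against 0.728% of all autosomal B6 refined peaks. The difference from B6 peaks that overlapped a KI refined peak (1.39%) was -0.701 points (-0.975 to -0.454), and that from KI-only peaks on B6 broad regions (0.632%) was 0.0533 points, with an interval that includes 0 (-0.0809 to 0.196). Of the bases of KI broad regions, 1.04% lay that near a start, whereas members were counted by their nearest edge, so the measures differ. When the starts of all annotated transcripts were used, many of which lie inside genes, the share of members was 7.79%. Within 1 kb of the end of a protein-coding gene lay 1435 members (6.79%, 6.46% to 7.13%), against 5.14% of all autosomal B6 refined peaks and 4.99% of KI-only peaks on B6 broad regions, a difference of 1.80 points (1.396 to 2.21). B6 peaks that overlapped a KI refined peak were at gene ends more often still (8.52%), and the difference of members from them was -1.73 points (-2.39 to -1.09). Along genes of at least 20 kb, the last 10% of the gene length took 12.4% of 15159 members and the first 10% took 8.38%. In steps of 500 bp over KI broad regions these shares were 11.4% and 7.63%, and among KI-only peaks on B6 broad regions 10.7% and 9.18%.

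Members were spread over many genes. At least 1 member overlapped 8114 of 21418 autosomal protein-coding genes, or 37.9%, and 60.6% of those touched by a KI broad region. Of these genes, 5001 held exactly 1 member, 2487 held 2 to 5 and 626 held more. Genes with a member had a median length of 32.7 kb, against 15.4 kb for genes touched by KI broad regions that held none. Among touched genes under 20 kb, 46.4% held a member at 5.64 members per 100 kb of gene, and among those over 200 kb, 58.5% did at 1.22 per 100 kb. The share was higher in between, at 72.0% over 20 to 50 kb, 73.9% over 50 to 100 kb and 70.5% over 100 to 200 kb, whereas the number per 100 kb was lower in each longer class. Of the genes with a member, 7515 (92.6%) also held a KI-only peak on a B6 broad region, and these were 87.3% of the 8609 genes with such a KI peak. Those 8609 were counted among all 21418 genes. Both kinds of peak lie on broad regions of both strains by their rules, so a large overlap is partly built in. The share among genes marked in both strains was not computed.

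The genes with the most members were long. Gm20388, an annotated model of 4435 kb on chromosome 8, held 84. Fgfr2, a receptor for fibroblast growth factors whose model spans 3009 kb in this annotation, and Sdk1, which encodes a cell adhesion protein, held 49 each. Auts2 held 42, the synaptic scaffold gene Shank2 held 38, and Cdkal1, which encodes a tRNA-modifying enzyme, held 37. Magi1, a scaffold of cell junctions, held 36, the mitochondrial tRNA synthetase gene Fars2 held 34, Gmds, which encodes an enzyme of GDP-fucose synthesis, held 33, and the Arf GTPase regulator gene Agap1 held 32. Per length they differed: Shank2 had 8.99 members per 100 kb and Fars2 8.09, whereas Fgfr2 had 1.63. Each of these genes also held KI refined peaks, from 64 in Shank2 to 218 in Gm20388, and KI broad regions covered between 26.0% of Fgfr2 and 74.1% of Fars2.

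Members were also counted in genes of meiotic recombination and of H3K36 methylation. In any gene, members lie on broad regions of both strains by the rule. Of 89 listed genes, 83 were found as protein-coding genes on autosomes, KI broad regions touched 82, and 66 held a member (79.5%). Of all protein-coding genes 37.9% did, of those touched by KI broad regions 60.6%, and of touched genes over 20 to 50 kb long 72.0%. The last share is the nearest background, since the listed genes had a median length of 34.1 kb, beside 15.5 kb over all protein-coding genes. The median number of members per gene was 1, beside 0 over all genes. For the KI-only peaks on B6 broad regions counted below, the background was 8609 of 21418 autosomal protein-coding genes. A background matched by length or mark was not computed for them. The lists were chosen with earlier results of these data known.

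All 6 genes of break formation found in the annotation held a member, and all 6 held a KI-only peak on a B6 broad region as well. Mei4, which with its partners allows SPO11 to cut DNA, held 12 members over 342.3 kb and was covered by KI broad regions to 24.1%. Mei1, required for breaks, held 2 in a gene covered to 94.2%. Prdm9 itself, which is swapped in part between the strains, had 96.4% of its length on B6 and 94.0% on KI broad regions and held 2 members and 1 KI refined peak. Spo11, whose product makes the breaks, had 82.4% of its length on broad regions of either strain and held 2 members and 1 KI refined peak. In Prdm9 and in Spo11 there was no B6 refined peak other than the members.

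Of 15 axis, synaptonemal complex and cohesin genes, 10 held a member and 9 a KI-only peak on a B6 broad region. Sycp1, the transverse filament of the synaptonemal complex, held 5 members and 5 KI refined peaks, and 0 B6 refined peaks that overlapped KI. The cohesin genes Smc3 and Stag3 held 2 members each, and Stag3, covered to 99.9% in KI, held 0 KI refined peaks. Hormad2, an axis protein gene, held 2 members and 1 KI refined peak. The 5 genes without a member were Hormad1, Rec8, Syce1, Syce2 and Tex12, of which all but Rec8 held a B6 peak that overlapped a KI refined peak.

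Of 15 strand exchange genes, 12 held a member and 12 a KI-only peak on a B6 broad region. Mnd1, which is needed for strand exchange, held 4, and Brca1 and Spata22 held 2 each. Of 13 crossover and mismatch repair genes, 11 held a member, with 2 in Pms2 and 1 each in Ccnb1ip1, Cntd1 and Exo1. A KI-only peak on a B6 broad region was held by 11. Of 9 checkpoint genes, 5 held a member and 5 a KI-only peak on a B6 broad region. Atm and Atr, kinases of the break response, were covered to over 98% in both strains and held 1 member and 1 KI refined peak each. Mdc1 and Chek2 held 1 member each, beside 4 and 5 KI refined peaks.

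Of 13 genes of H3K36 methyltransferases and demethylases, 12 held a member and 11 a KI-only peak on a B6 broad region. Setd2, which encodes the elongation-linked H3K36 methyltransferase, was covered to 99.5% in both strains and held 1 member over 86.0 kb, beside 2 KI refined peaks. The demethylase genes Kdm4c and Kdm4b held 3 and 2 members, and Setd3 and Smyd2 held 2 each. Of 12 genes of H3K36me3 readers, 10 held a member and 10 a KI-only peak on a B6 broad region. Dnmt3a, a DNA methyltransferase with a domain that reads H3K36 methylation, held 8 in a gene covered to 67.7% in KI, Zmynd11 held 4, Zcwpw1, which reads H3K4me3 and H3K36me3 together at hotspots, held 2, and Brpf1 held 1. Phf19 was touched by broad regions of neither strain and held 0.

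The sequence of the members was not used by the rule, and the members had no part in making the lists of 10-mers. A 10-mer of the B6 list was found in the middle 400 bp of 442 members (2.09%, 1.91% to 2.29%), against 3.10% of all autosomal B6 refined peaks. The latter share is raised by the peaks from which the list was made. In windows 2 kb to either side of the members the share was 1.23% (1.13% to 1.34%), a difference of 0.863 points (0.649 to 1.09). In the counterpart, KI-only peaks on B6 broad regions, it was 1.21% (1.098% to 1.32%), a difference of 0.886 points (0.667 to 1.11). With windows of 200 bp, in which the 10-mers were also listed anew, this difference was 0.106 points with an interval that includes 0 (-0.0729 to 0.293). List and window changed together there, so the part of the width alone was not tested. B6 peaks that overlapped a KI refined peak held a listed 10-mer in 1.53% of cases, 0.558 points fewer than members (0.235 to 0.862). The B6-only peaks with no KI region, from which the list was made, had 4.65%.

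For the KI list members had no such excess over their flanks. A 10-mer of the KI list was found in 195 members (0.922%, 0.802% to 1.06%), against 0.874% of all autosomal B6 refined peaks, which include those the KI list was chosen against. In the windows 2 kb to either side the share was 0.894%, a difference of 0.0284 points (-0.124 to 0.191). Against KI-only peaks on B6 broad regions (1.28%) the difference was -0.362 points (-0.532 to -0.185). Of the 20 10-mers of the B6 list, all 20 were at a higher share in members than in those KI peaks, and 19 of the 20 of the KI list were at a lower share. By chromosome, the B6-list share of members lay above that of the KI-only peaks on 19 of 19 autosomes and above that of their own flanks on 17 of 19, with chromosomes 13 and 19 the other way. Members ranged from 1.01% on chromosome 19 to 3.01% on chromosome 1. Only 2 of the 442 members held listed 10-mers 40 bp or more apart. The windows of members had a median GC content of 42.5%, KI-only peaks on B6 broad regions 43.25%, and the flanks of members 44.5%, and the part of base composition in these shares was not tested.

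**Figure D4:**
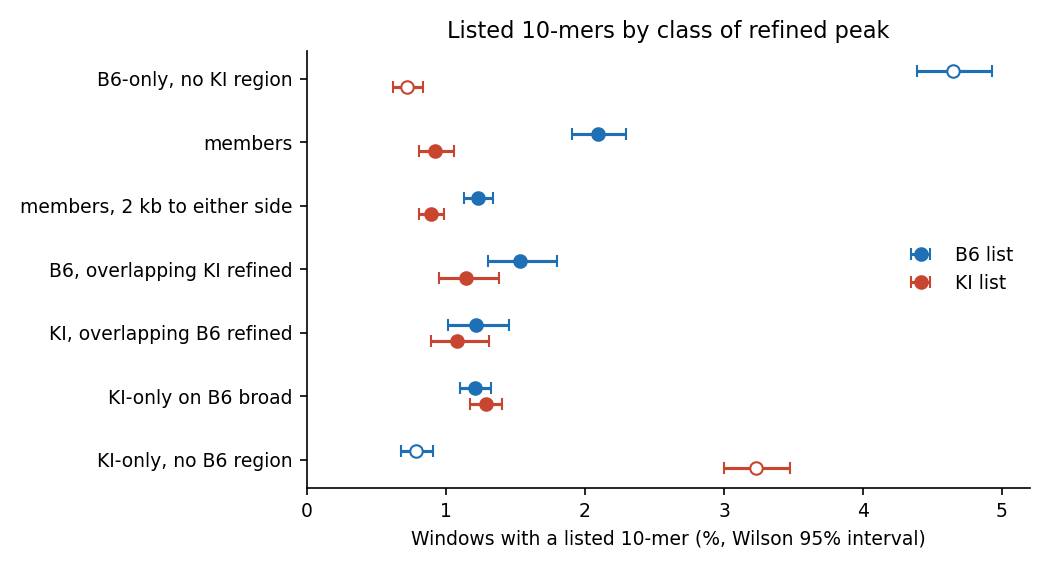
Share of windows of 400 bp with a 10-mer of the B6 list (blue) or the KI list (red), in % with Wilson 95% intervals, by class of refined peak. Open points are the classes from which the lists were made. Members hold a B6-list 10-mer in 2.09% of windows, above their flanks (1.23%) and the KI-only peaks on B6 broad regions (1.21%), and a KI-list 10-mer in 0.922%.

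A position weight matrix of 30 bp was built from the same peaks that are not members. Its seed was the first 10-mer of the B6 list, and its limit was set so that 5% of the KI-only peaks with no B6 region passed. The matrix gave the same order, but it shares seed and peaks with the list and is not a separate measure. It was passed by 2051 members (9.70%, 9.31% to 10.1%), by 6.71% of their flanking windows and by 5.82% of KI-only peaks on B6 broad regions. The differences were 2.99 points (2.53 to 3.46) and 3.89 points (3.42 to 4.35). B6 peaks that overlapped a KI refined peak passed in 7.34% of cases.

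The B6-list 10-mers were not most frequent at the middle of the members. Their median distance from the middle was 117.5 bp (interquartile range 73.8 to 149.5 bp, 542 10-mers within 200 bp), and 32.5% lay beyond the edge of the member. The limit of 200 bp bounds these values, and those of an even spread were not computed. In the zone 100 to 150 bp from the middle, on either side, 171 members held a listed 10-mer (0.809%, 0.697% to 0.939%). Within 50 bp of the middle 78 did (0.369%, 0.296% to 0.460%), a difference of 0.440 points (0.295 to 0.589). In zones of the same 50 bp from 500 to 1000 bp away the mean share was 0.326% (0.302% to 0.351%), and the share within 50 bp of the middle differed from it by 0.0430 points (-0.0344 to 0.137). B6-only peaks with no KI region, from which the list was made, had 2.07% at 100 to 150 bp, 0.626% (0.532% to 0.735%) within 50 bp and 0.315% (0.293% to 0.338%) from 500 to 1000 bp. In these peaks the interval at the middle lay above that far away. Whether members differ from them in this was not tested. KI-only peaks on B6 broad regions had 0.264% at 100 to 150 bp and 0.337% from 500 to 1000 bp, a difference of -0.0722 points (-0.124 to -0.0114). For the KI list these KI peaks had 0.403% at 100 to 150 bp and 0.212% from 500 to 1000 bp, and members 0.255% and 0.243%.

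**Figure D5:**
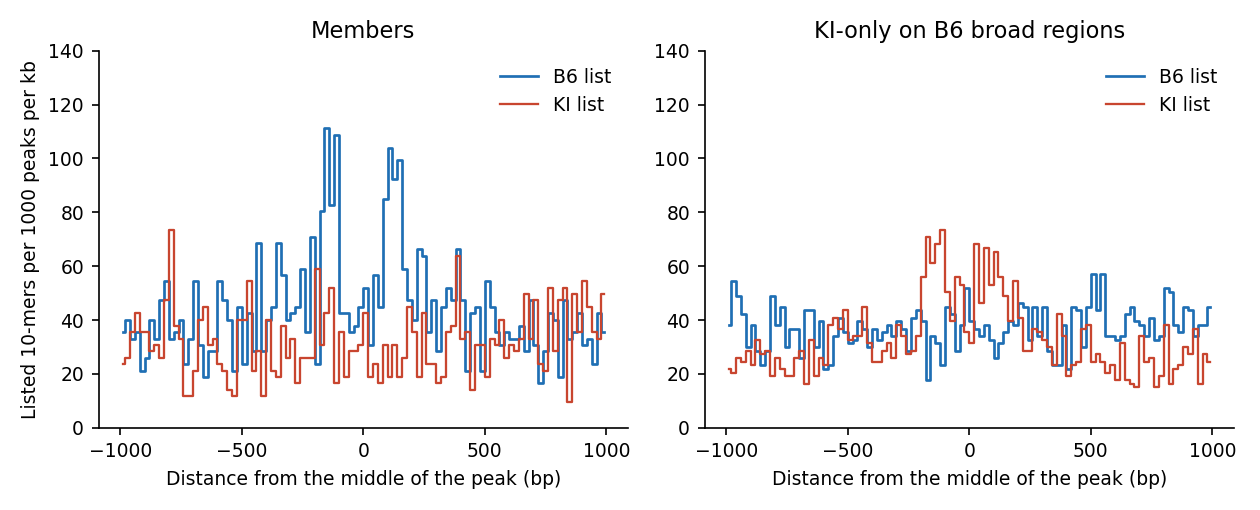
Number of listed 10-mers per 1000 peaks per kb, in bins of 20 bp, by distance in bp from the middle of members (left) and of KI-only peaks on B6 broad regions (right), for the B6 list (blue) and the KI list (red). In members the B6 list has a maximum on each side at 100 to 150 bp, where 0.809% of members hold a listed 10-mer, and a dip between them, where 0.369% do.

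Members differed among themselves in this sequence content. The share with a B6-list 10-mer was 1.44% (1.04% to 1.99%) among members within 150 bp of a KI refined peak and 2.86% (2.29% to 3.56%) among those over 5000 bp away, a difference of 1.42 points (0.633 to 2.22). The flanking windows of these groups had 1.22% and 1.34%. For the 2501 members within 150 bp the share exceeded that of their flanks by 0.220 points, with an interval that includes 0 (-0.306 to 0.829). The share with a listed 10-mer 100 to 150 bp from the middle was 0.520% in the near group and 1.26% in the far one. Among members on KI regions over 30 kb the share was 2.90%, and on regions up to 3 kb 1.86%, a difference of 1.04 points (0.327 to 1.86). The flanking windows of these groups differed in the same direction, with 1.36% and 0.955%. The excess over the flanks was 1.53 points (0.826 to 2.34) on the wide regions and 0.904 points (0.534 to 1.32) on the narrow ones, and these intervals overlap. Members whose regions held 1 refined peak in each strain had 2.28%, 0.782 points more than the others (0.350 to 1.17).

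Narrow members held a listed 10-mer more often than wide ones in the windows of 400 bp. These windows do not reach the edges of members over 444 bp wide, and the part of this in the difference was not tested. The share was 2.70% (2.30% to 3.16%) for those up to 251 bp wide and 1.48% (1.19% to 1.84%) for those over 444 bp, a difference of 1.22 points (0.677 to 1.77). For the widest group the share exceeded that of its flanks by 0.208 points, with an interval that includes 0 (-0.165 to 0.621). Members in protein-coding genes (2.10%) and outside them (2.01%) differed by 0.0887 points, with an interval that includes 0 (-0.525 to 0.591). Members with their middle in a coding exon had 1.55% (0.972% to 2.47%), against 1.46% in their flanks.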

How the data were processed

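H3K36me3 ChIP-seq of B6 and KI spermatocytes was analysed from 2 lists per strain, broad regions and refined peaks. The authors trimmed the reads with trimmomatic, aligned them to mm9 with BWA (version 1.2.3 in the submitters' processing notes), kept reads of unique position, merged 2 replicates per strain and ran ZINBA with the input as control. The merged KI data were deeper than those of B6. The deposited positions were read as counted from 1, since the widths of 99.996% of the B6 broad regions are multiples of 500 bp. The broad list repeats a region for each refined peak on the same line, and each region was used once.

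Overlaps of at least 1 bp, distances and shares were computed in Python 3.11.15 with numpy 2.4.6, pandas 2.3.3 and scipy 1.17.1, and the code was tested on simulated data. Shares carry Wilson and differences Newcombe 95% intervals, which cover the number of peaks only. Genes came from GENCODE and sequences from the mm9 reference. The 10-mers were listed if found in at least 10 peaks, leaving out simple repeats. Genes named are those with the 10 largest numbers of members, those of the 5 widest members, up to 4 of each list by number of members, Prdm9 and Setd2. A sequence and a gene that these rules select are not reported here. Genes of the printed sequences and the marker genes are named as well. Malat1, which is not protein-coding, and the genes without a member were named after their values were seen. The limit of 150 bp that sets off the members nearest to a KI peak was also set after the data had been seen. The members, lists and rules were chosen with earlier results of these data known. Alternatives changed the overlap rule, the gene set, the 10-mers and the window.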

Additional observations from a re-analysis of the deposited data

How the results depend on the processing

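With 1 merged list per strain, no replicate could be left out and no error between animals is known. No paired analysis was possible because each strain has a single merged list of each kind. The filter on soft-masked sequence was not run, since the genome used is not soft-masked. Of 51 alternatives, 19 stayed within the 95% interval of the reported value (or within 1.5 times a count) and 32 moved further. Counts, shares and distances cannot change sign. Of the 13 alternatives for the difference in the B6-list share, which could, 0 did. The causes were not tested.

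With no KI refined peak allowed within 500 bp, members numbered 13922, 88.1% lay in protein-coding genes, 2.32% held a B6-list 10-mer and the median distance to a KI refined peak was 1621 bp. With 1000 bp, the values were 9680, 89.8%, 2.52% and 2623.5 bp, and the difference in the B6-list share from KI-only peaks was 1.27 points. The longer distances follow from these rules. With whole peaks on KI broad regions, 87.0% lay in genes, and with B6 peaks within 1000 bp merged, the median distance was 902 bp. The share in genes was 88.2% for genes of any type and 85.7% by midpoints. The share near starts was 7.79% with all transcripts and 0.345% within 500 bp.

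The B6-list share of members and its difference from the KI-only peaks were 13.2% and 1.88 points with 8-mers, 0.449% and 0.188 with 12-mers, 1.19% and 0.604 with 10 listed, 4.001% and 1.43 with 40 listed, 1.22% and 0.106 in windows of 200 bp, 1.81% and 0.596 over whole peaks, and 9.70% and 3.89 with the matrix. With windows of 600 bp, chosen after seeing the data, they were 2.78% and 1.12 points. For windows of 200 and 600 bp the 10-mers were listed anew in windows of that width. Without members that are the single peak in the regions of both strains, also chosen after seeing the data, the share was 1.496%. The difference stayed above 0 with its interval in 12 of 13 alternatives, the exception being windows of 200 bp (-0.0729 to 0.293).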
